A study of Mus musculus with 20 samples.

Results

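The glycolysis and hypoxia response genes of type 1 conventional dendritic cells (cDC1s) were followed across 20 RNA-seq libraries of mouse cells in 8 sample groups. The set comprised 36 genes listed by symbol, out of 47729, 54532 and 55487 genes in 3 separate count tables. No measured value entered the rule, but earlier results of these data were known when the set was chosen. It held 4 glucose and lactate transporters, 8 genes from hexokinase to aldolase, 7 from triose phosphate isomerase to pyruvate kinase, 2 lactate dehydrogenases, 4 genes that set glycolytic flux, 3 genes of HIF-1 alpha and its hydroxylases, and 8 other hypoxia response genes. Each of the 36 had a row in each table.

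Tests were run within a table only, and levels from different tables are set side by side without a test. The first table held cDC1s sorted as XCR1+CD8a+ from C57BL/6 wild-type mice, 2 libraries without treatment and 2 from day 15 of TLI/ATS. This conditioning regimen, used to induce transplant tolerance, joins irradiation of the lymphoid organs (TLI) to an anti-thymocyte serum (ATS). The second held EpoR+ and EpoR- fractions of XCR1+CD8a+ cDC1s from EpoR-tdTomato mice, which carry a fluorescent reporter of the erythropoietin receptor, with 2 libraries per group. All mice of that table had received TLI/ATS, and the cells were again from day 15. The third held XCR1+SIRPa- cDC1s of the spleen and the peripheral lymph node, from Epor flox/flox controls (Ctrl) and from Epor-Xcr1-Cre conditional knockouts (cKO), with 3 libraries per group. The labels name the controls by the floxed allele alone, so an effect of the Cre driver and an effect of the deletion cannot be told apart. The labels call the lymph node cells CCR7+ migratory cDC1s and the spleen cells CCR7+ cDC1s, so a difference between tissues is also a difference between sorted populations. No label gives a tissue for the first and second tables or a treatment for the third. Nor does a label state that libraries of a group came from separate animals, so the p-values measure the spread between these libraries.

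Glycolysis splits glucose into pyruvate in the cytosol, and lactate dehydrogenase can turn that pyruvate into lactate, which leaves the cell through monocarboxylate transporters. Under low oxygen the prolyl hydroxylases Egln1 and Egln3 stop marking HIF-1 alpha for destruction, and HIF-1 then raises many glycolytic genes, the pyruvate dehydrogenase kinases Pdk1 and Pdk3, and genes such as Bnip3, Adm and Vegfa. In dendritic cells glycolysis is known to support activation, and migration to lymph nodes guided by CCR7.

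Levels are read counts scaled to a common depth (CPM), with library sizes adjusted by the trimmed mean of M values (TMM). Depth ran from 26618029 to 77570149 counts per library. Counts of Epor were 236 and 127 after TLI/ATS and 0 without treatment (3 counts, the limit that a count of 0 allows, are 0.0649 and 0.0739 CPM there), 525 and 657 in EpoR+ and 4 and 11 in EpoR-. In the third table it had 1, 0 and 6 counts in spleen Ctrl, 0, 2 and 0 in spleen cKO, 24, 28 and 4 in lymph node Ctrl, and 0 in the 3 lymph node cKO libraries. These counts separate the genotypes in the lymph node and say nothing of the spleen libraries, where the controls were as low. None of 13 cDC1 markers was at 0 throughout a group, and their sum ran from 5284 to 19390 CPM. In the EpoR+ libraries the sum of 20 macrophage markers (25440 to 26180 CPM) was above that of the cDC1 markers (8713 to 10090 CPM), and Sirpa, a gene of macrophages and cDC2s, reached 1845 and 1734 CPM against 33.5 and 24.7 CPM in EpoR-. Xcr1, the cDC1 chemokine receptor, was detected in every library, at 719 to 1025 CPM in the first table, 409 to 494 in EpoR+, 1059 to 1152 in EpoR-, 76.8 to 108 in spleen and 19.3 to 32.2 in the lymph node. Cd8a stood at 286 to 933 CPM in the first 2 tables, 876 to 1194 in spleen and 122 to 199 in the lymph node, and Ccr7, which the third sort used, at 3800 to 5703 CPM in spleen and lymph node. Some libraries stood apart from their group. The distance used here is the chi-square of the gene counts per degree of freedom. It was 294 within the TLI/ATS pair, 160 to 222 between TLI/ATS and untreated libraries and 15.8 within the untreated pair, while the correlation of log2 CPM across genes was 0.944 within the TLI/ATS pair and 0.926 to 0.934 between the groups. Spleen Ctrl replicate 3 lay nearer to the spleen cKO libraries (30.3 to 56.4) than to the other spleen controls (164 and 142). Spleen Ctrl replicates 1 and 2 lay nearest to each other (31.8). By correlation, however, each spleen control was closest to spleen cKO replicate 3, at 0.9662, 0.9764 and 0.9847 for Ctrl replicates 1, 2 and 3. For Ctrl replicate 1 the value with Ctrl replicate 3 was almost the same (0.9661). In the lymph node the nearest library to Ctrl replicate 2 was cKO replicate 3 (36.6), and to cKO replicate 2 it was Ctrl replicate 3 (38.6). On this distance Ctrl replicate 2 and cKO replicate 2 thus did not group by genotype. Ctrl replicate 1 lay nearest to Ctrl replicate 3 (39) and cKO replicate 1 to cKO replicate 3 (14.2). By correlation Ctrl replicate 2 was still closest to cKO replicate 3 (0.987). On that measure cKO replicate 2 was closest to cKO replicate 1 (0.980, against 0.978 with Ctrl replicate 3). In bulk libraries such as these, fewer cells of a type and less RNA per cell cannot be told apart.

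The promoters of the members were searched for the core of the HIF binding site, ACGTG or GCGTG, on both strands. RefSeq windows of GRCm38.p6, from 250 bases before to 50 bases after a transcription start, were found for 34 of the 36 members, and 32 of the 34 (94.1%) held at least 1 match in a window. Of all 27025 genes with a window, expressed or not, 46.7% held a match. Both cores hold a CG pair, and the genes were not matched for CG content or expression. Members were picked as glycolysis and hypoxia genes, so these shares are no test of HIF sites. A gene with several windows has more room for a match. Counted by window, 83.3% of the members' 48 windows and 43.8% of all 32851 windows held one. For ACGTG alone the shares of genes were 70.6% and 21.8%. CACGTG, which reads the same on both strands, counts as 2 matches, which does not alter a share of genes with at least 1. A match describes letters in a window and not a bound site. The 250 bases before the start are shown for 6 members, those past the threshold in the most comparisons below and, among ties, with the smallest adjusted p, that held a match. They are read 5′ to 3′ on the strand of the gene, with the motif in capitals. Where a gene had several windows, the window with the most matches is shown, the first of them at a tie. The other Ldha window held 2 matches, the other Aldoa windows 0 and 1, and the other Eno1 windows 2 each. Counting each CACGTG as 2, the Ldha window shown (chr7:46845554-46845803, plus strand) held the most matches of the 6 members. It held 7 in the whole window, 5 of them in the bases shown. The others are Eno1 (chr4:150236458-150236707, plus), Adm (chr7:110627407-110627656, plus), Eno3 (chr11:70656926-70657175, plus), Hk2 (chr6:82774455-82774704, minus) and Aldoa (chr7:126799255-126799504, minus).
Ldha: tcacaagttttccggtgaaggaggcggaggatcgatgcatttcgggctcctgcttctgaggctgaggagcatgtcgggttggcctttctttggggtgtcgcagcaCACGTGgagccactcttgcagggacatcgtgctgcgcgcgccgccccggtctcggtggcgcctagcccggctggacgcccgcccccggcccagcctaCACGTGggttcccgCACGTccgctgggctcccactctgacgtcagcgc
Eno1: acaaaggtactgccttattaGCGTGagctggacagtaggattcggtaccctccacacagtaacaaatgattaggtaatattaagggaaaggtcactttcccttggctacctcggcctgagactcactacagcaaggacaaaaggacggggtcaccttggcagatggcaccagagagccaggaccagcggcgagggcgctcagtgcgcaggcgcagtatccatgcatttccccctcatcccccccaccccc
Adm: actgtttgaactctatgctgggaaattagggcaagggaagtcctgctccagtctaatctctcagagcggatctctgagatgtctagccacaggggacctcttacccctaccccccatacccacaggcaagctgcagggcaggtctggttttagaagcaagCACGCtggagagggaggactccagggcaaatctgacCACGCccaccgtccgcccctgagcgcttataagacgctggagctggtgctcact
Eno3: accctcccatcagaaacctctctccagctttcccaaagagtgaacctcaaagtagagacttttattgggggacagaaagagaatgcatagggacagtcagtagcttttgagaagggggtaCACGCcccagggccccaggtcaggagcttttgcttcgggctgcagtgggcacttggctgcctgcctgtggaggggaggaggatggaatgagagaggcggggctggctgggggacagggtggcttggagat
Hk2: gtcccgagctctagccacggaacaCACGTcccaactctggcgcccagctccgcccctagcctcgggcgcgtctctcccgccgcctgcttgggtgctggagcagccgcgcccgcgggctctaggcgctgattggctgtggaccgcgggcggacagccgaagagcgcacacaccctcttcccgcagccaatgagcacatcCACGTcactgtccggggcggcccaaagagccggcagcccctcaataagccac
Aldoa: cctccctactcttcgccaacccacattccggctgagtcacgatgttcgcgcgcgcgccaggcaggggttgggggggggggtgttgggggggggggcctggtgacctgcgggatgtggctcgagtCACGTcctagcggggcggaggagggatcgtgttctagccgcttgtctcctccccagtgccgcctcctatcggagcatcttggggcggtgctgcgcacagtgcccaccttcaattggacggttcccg

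The first comparison asks how the members differed in cDC1s after TLI/ATS. The 2 members that passed the test were lower: Ldhb, the lactate dehydrogenase subunit that favours lactate use, and Slc2a3, the high-affinity glucose transporter GLUT3. With edgeR's quasi-likelihood test and Benjamini-Hochberg adjustment over 17236 genes, at a threshold of 0.05, 0 members were higher and 2 lower. Over all genes tested 0.499% were higher and 2.2% lower. With these 2, 10 of 36 members had an unadjusted p under 0.05 in edgeR, as did 2705 of all 17236 genes. DESeq2 called 4 members, all lower, and its calls over all genes are not given here. The members' median log2 fold change was 0.21, against 0.02 over all genes, and 22 of 36 were positive.

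Of the transporters, Slc2a3 had 7.72 and 4.45 CPM after TLI/ATS and 27.3 and 28.2 CPM in untreated cDC1s. The groups did not overlap, and the log2 fold change was -2.19 ± 0.32 (SE, edgeR adjusted p = 0.0438). Its partner Slc2a1, the widespread transporter GLUT1, had 35.2 and 25.8 CPM against 20.3 and 21.0, also without overlap, with an adjusted p of 0.336. Per kb, Slc2a3 made up 9.58% and 7.72% of the summed Slc2a1 and Slc2a3 level after TLI/ATS and 39.3% and 39.4% in untreated cells.

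Of the lactate dehydrogenases, Ldhb had 0.371 and 0.245 CPM after TLI/ATS, from 29 and 15 counts, and 6.36 and 6.31 CPM in untreated cells, from 307 and 267 counts. Its log2 fold change was -4.34 ± 0.36 (edgeR adjusted p = 0.0103). Ldha, the subunit that favours lactate formation, had 1390 and 1683 CPM after TLI/ATS and 1057 and 1119 CPM in untreated cells, with an adjusted p of 0.262. Ldha was the highest member per length in each of the first 4 groups, at 464 ± 62 CPM per kb (SD, n = 2) after TLI/ATS and 329 ± 13 in untreated cells. Per kb, Ldhb held no more than 1.25% of the summed level of both subunits in any of the 4 libraries of the first table.

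Markers of lymphocytes fell in the same libraries as Ldhb and Slc2a3. All 14 T cell markers were lower after TLI/ATS, with a sum of 27.0 to 36.2 CPM against 859 to 860 CPM in untreated libraries, and 11 of 12 B cell markers were lower, with 76.0 to 79.8 against 730 to 734 CPM. None of either list was at 0 throughout a group. Of the plasmacytoid dendritic cell markers 10 of 12 were lower (249 to 270 against 1220 to 1222 CPM), and 12 of 20 macrophage markers were higher (1484 to 1906 against 484 to 507 CPM), as were 7 of 12 erythroid markers tested (1446 to 1494 against 212 to 221 CPM, with 2 of 14 at 0 in both untreated libraries). The part of these cells in the fall of Ldhb and Slc2a3 was not tested.

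Of the 15 genes from hexokinase to pyruvate kinase, 13 had a positive log2 fold change and none passed the test. Pkm, pyruvate kinase, had 856 and 812 CPM against 550 and 573, with a log2 fold change of 0.57 ± 0.15 and an adjusted p of 0.15. Pfkp, the platelet-type phosphofructokinase, had 265 and 187 CPM against 119 and 150 (0.75 ± 0.24, adjusted p = 0.244). Eno3, the muscle-type enolase, had 35.3 and 30.4 CPM against 51.7 and 54.0 (-0.69 ± 0.18, adjusted p = 0.145). These groups did not overlap, but the differences missed the threshold. With 2 libraries per group such separation is weak evidence, and its share over all genes was not counted. Among the hypoxia response genes Ankrd37 came nearest, with 0.768 and 0.685 CPM against 2.26 and 3.43 (-1.96 ± 0.38, adjusted p = 0.0774), and 22.7% of its exon bases are shared with Lrp2bp on the opposite strand. Hif1a, the oxygen-regulated subunit of HIF-1, had 78.1 and 41.9 CPM against 61.2 and 65.1, so that its groups overlapped.

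Of 21 other glycolysis genes, 17 HIF regulators, 10 pentose phosphate genes, 30 genes of pyruvate entry and the TCA cycle, and 22 of glucose sensing, mTORC1 and AMPK that were tested, none passed. Of 29 other HIF targets, Hmox1, heme oxygenase, was higher at 293 ± 52 CPM against 61.0 ± 4.7 (SD, n = 2 each; log2 2.26 ± 0.20 SE, adjusted p = 0.0139), and Cxcr4, a chemokine receptor, was lower at 11.8 ± 2.0 against 31.5 ± 0.2 (-1.42 ± 0.22, adjusted p = 0.0438). Of the TCA list 28 of 30 were positive, with a median of 0.22. Without TLI/ATS replicate 1, 21 members passed (11 higher and 10 lower), beside 4908 of all 17804 genes tested, and without replicate 2, 22 did (16 and 6), beside 4679 of 17910, the spread then coming from the untreated libraries alone. Both fits still called Ldhb and Slc2a3, whereas Slc2a3 was lost without the low-count filter (adjusted p = 0.054) and with total counts in place of TMM (0.0625).

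**Figure D1:**
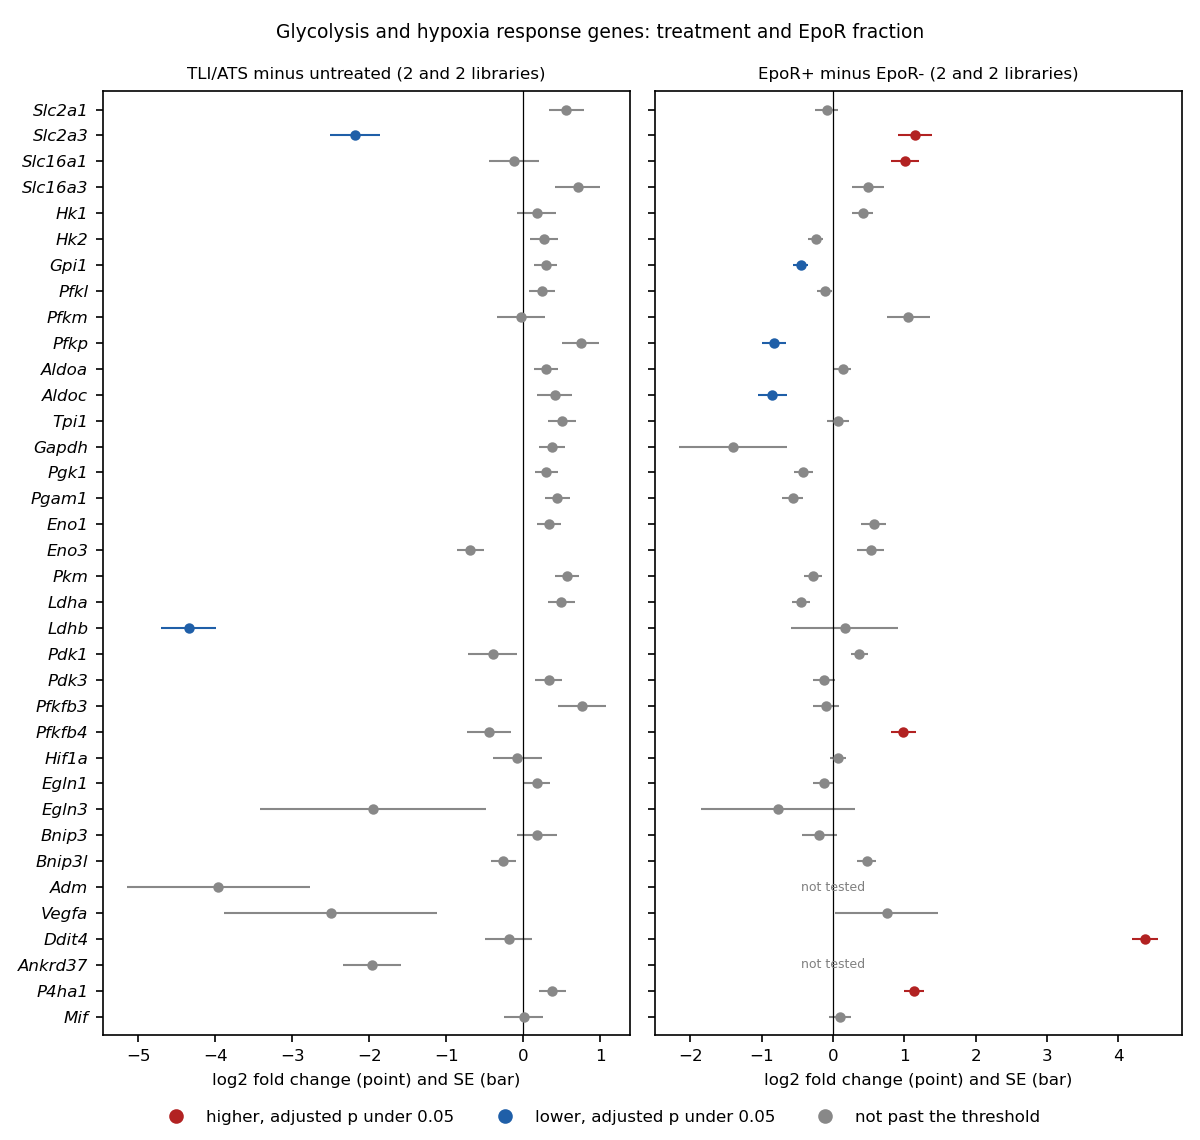
Log2 fold change (x axis, point) with its SE (bar) for each member (y axis) after TLI/ATS against untreated (left) and in EpoR+ against EpoR- cDC1s (right), 2 libraries per group. Ldhb at -4.34 and Slc2a3 at -2.19 stand apart on the left, and Ddit4 at 4.38 on the right. Adm and Ankrd37 were not tested on the right.

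The second comparison asks what separated cDC1s with the Epor reporter from those without it after TLI/ATS. The change of greatest size was in Ddit4, the stress-induced inhibitor of mTORC1, which was far higher in EpoR+ cDC1s. The transporters Slc2a3 and Slc16a1, P4ha1 and Pfkfb4 were higher as well, while 3 enzymes between hexokinase and aldolase were lower. Of 34 members tested, 5 were higher and 3 lower, and 11.9% of the 15627 genes tested were higher and 4.75% lower. With these 8, 17 of the 34 members had an unadjusted p under 0.05 in edgeR, as did 4677 of all 15627 genes. The members' median log2 fold change was 0.07 against 0.02 over all genes. More members, and more of all genes, passed with a replicate block, as given in the closing section on processing.

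Among the transporters, Slc16a1, the monocarboxylate transporter MCT1, had 36.8 and 36.8 CPM in EpoR+ and 21.1 and 15.3 CPM in EpoR- (log2 1.02 ± 0.20, adjusted p = 0.023). Slc2a3 had 10.9 and 14.1 CPM against 5.49 and 5.71 (1.15 ± 0.24, adjusted p = 0.0276). Neither gene overlapped between the groups. Their partners did not pass: Slc2a1 had 19.9 and 21.9 CPM against 23.2 and 21.3, and Slc16a3, the lactate exporter MCT4, 9.16 and 11.1 against 6.88 and 7.56 (adjusted p = 0.776 and 0.226).

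From hexokinase to aldolase the 3 genes that passed were lower. Pfkp had 156 and 195 CPM in EpoR+ and 277 and 346 CPM in EpoR- (-0.83 ± 0.17, adjusted p = 0.0272). Aldoc, a minor aldolase, had 14.4 and 10.9 CPM against 21.8 and 23.9 (-0.85 ± 0.20, adjusted p = 0.0437). Gpi1, glucose-6-phosphate isomerase, had 352 and 352 CPM against 512 and 452 (-0.45 ± 0.11, adjusted p = 0.042). In each of the 3 both EpoR+ libraries lay below both EpoR- libraries. Gpi1 shares 11.5% of its exon bases with Gm26762 on the opposite strand, and the counts ignore strand.

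The other phosphofructokinases missed the threshold. Pfkm, the muscle type, had 12.1 and 15.7 CPM against 5.19 and 8.18 (1.05 ± 0.30, adjusted p = 0.0738), and Pfkl, the liver type, had 66.1 and 67.7 against 70.3 and 74.8 (adjusted p = 0.557). Per kb, Pfkp held 46.2% and 49.5% of the family in EpoR+ and 63.1% and 65.4% in EpoR-, while Pfkm held 14.4% and 16% against 4.74% and 6.21%. Aldoa, the main aldolase, had 375 and 361 CPM against 366 and 304, with overlapping groups.

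From triose phosphate isomerase to lactate none of 9 genes passed in the fit without a replicate block, and signs were mixed. Eno1, the main enolase of most tissues, had 420 and 394 CPM against 318 and 229 (0.57 ± 0.17, adjusted p = 0.0878), while Pgam1, phosphoglycerate mutase, had 144 and 130 against 227 and 179 (-0.56 ± 0.15, adjusted p = 0.0581). Ldha had 570 and 506 CPM against 792 and 670 (-0.44 ± 0.13, adjusted p = 0.0731). None of these 3 overlapped between groups, which is weak evidence with 2 libraries per group. The share of all genes without overlap was not counted. Gapdh varied widely, with 6.04 and 16 against 43.4 and 14.9 CPM, and copies elsewhere make its counts uncertain. Its 2 named copies held 0.358% of the joint counts in these libraries, and reads lost to copies were not measured.

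Of the genes that set flux, Pfkfb4, which makes the phosphofructokinase activator fructose 2,6-bisphosphate, had 20.7 and 24.5 CPM against 11.2 and 11.7 (0.99 ± 0.18, adjusted p = 0.0177). Pfkfb3, which makes the same activator, had 147 and 168 against 140 and 197, with overlapping groups. Of the hypoxia response genes, Ddit4 had 90.2 and 97.3 CPM in EpoR+ and 5.07 and 3.93 CPM in EpoR- (4.38 ± 0.18, adjusted p = 0.000121). P4ha1, a subunit of collagen prolyl 4-hydroxylase, had 99.4 and 124 CPM against 51.3 and 50.4 (1.14 ± 0.14, adjusted p = 0.00555). Both were separated by more than the spread within either group. Hif1a had 106 and 112 CPM against 98.9 and 109, and Egln1 had 57.9 and 48.4 against 63.0 and 53.5, both with overlap.

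**Figure D2:**
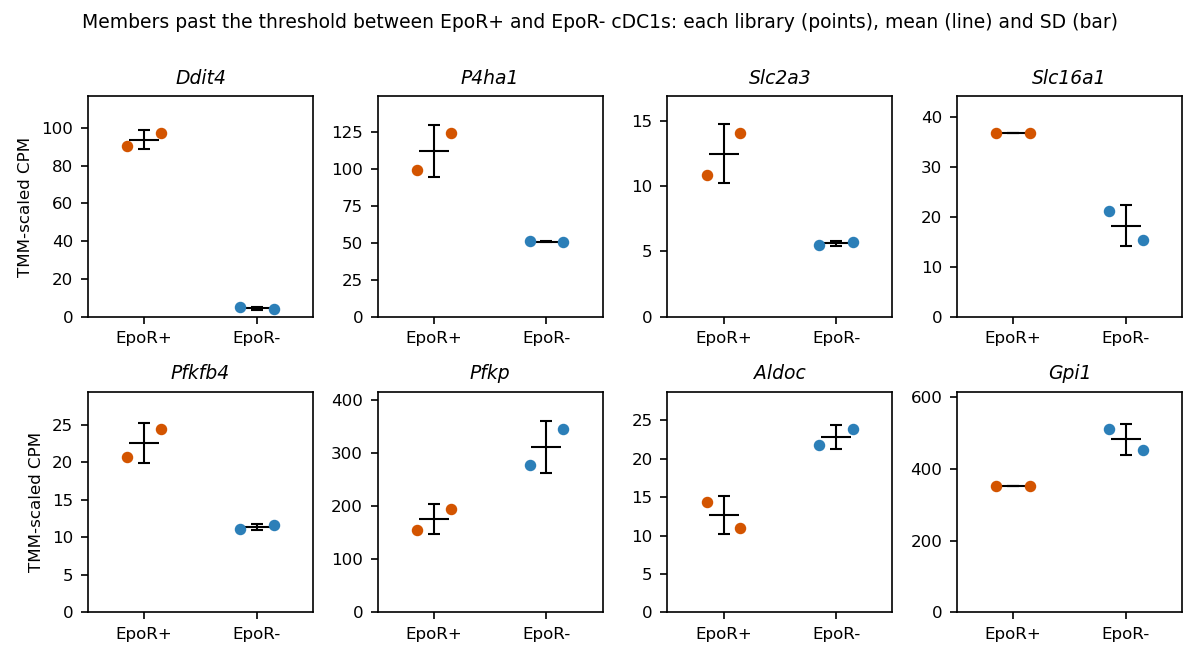
TMM-scaled CPM (y axis, from 0) of the 8 members past the threshold, with each library as a point, the group mean as a line and the SD as a bar, for EpoR+ and EpoR- cDC1s. The Ddit4 points lie at 90.2 and 97.3 against 5.07 and 3.93 CPM, and no gene shown overlaps between the groups.

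Of the 6 pathway lists around the set, 5 held more higher than lower genes, as did all genes tested. Of 24 other glycolysis genes 8 were higher and 0 lower, among them Slc16a7, a monocarboxylate transporter (33.6 ± 4.2 against 1.90 ± 0.49 CPM, SD, n = 2 each), and Pklr, the liver and red cell pyruvate kinase (19.9 ± 4.0 against 1.5 ± 0.40). Of 34 other HIF targets 9 were higher and 2 lower, led by Hmox1 (3341 ± 103 against 89.1 ± 2.3 CPM), with Angptl4, a lipase inhibitor (29.5 ± 11.2 against 2.89 ± 0.71), behind it. Of 23 genes of glucose sensing, mTORC1 and AMPK 4 were higher and 1 lower, including Sesn1, a sestrin (49.5 ± 0.9 against 8.85 ± 0.44), and Txnip, an inhibitor of glucose uptake (222 ± 23 against 82.6 ± 8.6). G6pdx, which opens the pentose phosphate pathway, was higher at 117 ± 9 against 52.5 ± 7.6, and 2 of that list of 10 were higher and 1 lower. Of the TCA list 1 of 30 was higher and 2 lower, and of 20 HIF regulators 2 were higher and 0 lower. The adjusted p values of the genes named here ran from 2.62e-05 for Hmox1 to 0.00565 for G6pdx in edgeR's quasi-likelihood test.

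All 20 macrophage markers were higher in EpoR+, with a sum of 25440 to 26180 CPM against 430 to 444, as were the 14 erythroid markers tested of 15, with 2155 to 2520 against 207 to 286 CPM. Of the 13 cDC2 and monocyte markers 9 were higher and 1 was lower (3087 to 3258 against 454 to 552 CPM). Sirpa is on this list and on the macrophage list, and alone gave 1845 and 1734 CPM in EpoR+. Of the 13 cDC1 markers 11 were lower in EpoR+ (8713 to 10090 against 17540 to 19390 CPM). None of these lists had a marker at 0 throughout a group. EpoR- replicate 1 also carried acinar pancreas markers at 2751 CPM, against 161 to 189 CPM in the other 3 libraries. Their part in the differences above was not tested. Each of the following fits leaves 1 library in a group, and calls over all genes in them are not given. Calls lost there cannot be read as particular to the members. Ddit4 and P4ha1 passed without each library in turn, at adjusted p up to 0.000245 and 0.0173. Without EpoR+ replicate 1, 2 members passed, and the other 6 of the 8 did not (Slc2a3 0.0672, Slc16a1 0.0862, Gpi1 0.166, Pfkp 0.109, Aldoc 0.0687, Pfkfb4 0.0579). Without EpoR+ replicate 2, 3 members passed, and Slc2a3 (0.175), Slc16a1 (0.0756), Gpi1 (0.164), Aldoc (0.222) and Pfkfb4 (0.118) were lost. Without EpoR- replicate 1 Slc2a3 (0.0502) and Gpi1 (0.205) did not pass, nor did Aldoc without EpoR- replicate 2 (0.0748).

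The third question is what deletion of Epor did to the members in each tissue. In spleen cDC1s Ldha was higher in the cKO and no other member passed. Of 36 members 1 was higher and 0 lower, and 0.49% of 17362 genes were higher and 0.121% lower. Ldha had 128, 126 and 140 CPM in the controls and 207, 202 and 175 CPM in the cKO, so the groups did not overlap. Its log2 fold change was 0.57 ± 0.11 (SE, edgeR adjusted p = 0.0288). Ldhb had 0.182, 0.241 and 0.540 CPM against 0.804, 1.43 and 0.286 in the cKO, with overlap.

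Other genes between triose phosphates and pyruvate had positive values without passing. Eno1 had 76.7, 87.3 and 88.2 CPM in spleen controls and 125, 128 and 101 CPM in the cKO (0.49 ± 0.12, adjusted p = 0.0808). Tpi1, triose phosphate isomerase, had 56.8, 68.8 and 54.2 against 77.7, 71.7 and 78.3 CPM (0.34 ± 0.11, adjusted p = 0.177). Neither gene overlapped between the groups. Of the 7 genes from triose to pyruvate 6 were positive, the exception being Eno3 with 746, 673 and 764 against 622, 610 and 636 CPM (-0.22 ± 0.07, adjusted p = 0.2). With Ldha, 8 of 36 members had an unadjusted p under 0.05 in edgeR, as did 2255 of all 17362 genes. The members' median was 0.09, against 0 over all genes.

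In lymph node cDC1s no member passed between cKO and control, where 0.288% of genes were higher and 0.167% lower. DESeq2 also called 0. In edgeR 4 of 36 members had an unadjusted p under 0.05, as did 1304 of all 17362 genes. Ldha had 136, 113 and 120 CPM in controls and 99.6, 92.1 and 118 CPM in the cKO (-0.26 ± 0.11, adjusted p = 0.597), and Eno1 had 219, 248 and 222 against 185, 158 and 214 CPM (-0.31 ± 0.12, adjusted p = 0.527). Eno1 did not overlap between the groups and Ldha did. The members' median was -0.13.

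The difference of the cKO effect between the tissues was tested directly. It passed for 1 member, Ldha, at -0.82 ± 0.15 on the log2 scale (lymph node minus spleen, adjusted p = 0.0268). Of all genes 0.127% passed with a higher and 0.19% with a lower value. Eno1 was next at -0.79 ± 0.17 (adjusted p = 0.0565), and it passed with DESeq2 (0.003), without the low-count filter (0.000259), with total counts (0.0332), and without spleen Ctrl replicate 3 (0.0345), spleen cKO replicate 3 (0.0349) or pLN cKO replicate 3 (0.0319). Pkm followed at -0.42 ± 0.12 (adjusted p = 0.167). Of the members 27 of 36 were negative, with a median of -0.28 against 0.01 over all genes.

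Plasma cell markers differed in the same libraries as Ldha: 5 of 13 were higher in spleen cKO, with a sum of 5147 to 5584 CPM against 2479 to 2654 in the controls, and none was at 0 throughout either group. In the lymph node 4 of 12 genes of cell stress and dissociation were lower in the cKO, with a sum of 5787 to 6805 against 7430 to 8648 CPM, and 2 of the 12 were lower in the difference between tissues. The part of either list in the Ldha difference was not tested. The lymph node plasma cell sums were 363 to 383 CPM in controls and 336 to 393 CPM in the cKO. In the pathway lists, 1 gene passed in spleen, Eloc, the elongin C subunit of the VHL ubiquitin ligase, which was lower in the cKO (163 ± 13 against 212 ± 5 CPM, SD, n = 3 each; log2 -0.39 ± 0.08, adjusted p = 0.0386). No gene of those lists passed in the lymph node or in the difference. The spleen call of Ldha was lost without spleen Ctrl replicate 1 (adjusted p = 0.06), spleen Ctrl replicate 2 (0.06), spleen cKO replicate 1 (0.122) or spleen cKO replicate 2 (0.101), with log2 values of 0.54 to 0.66 over the 6 libraries left out. Without spleen Ctrl replicate 3, which lay nearest the cKO libraries, it was 0.64 (0.0156). The difference was lost without spleen cKO replicate 1 (0.0917) or 2 (0.0909), pLN Ctrl replicate 1 (0.101), or pLN cKO replicate 1 (0.091) or 2 (0.0745), with values of -0.93 to -0.75 over the 12 left out. The pLN libraries are those of the peripheral lymph node.

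The last comparison sets lymph node against spleen in each genotype, with no library shared between the genotypes. The hypoxia response genes Adm, Bnip3 and Bnip3l, the pyruvate dehydrogenase kinase Pdk3, hexokinase 1, both enolases and the lactate exporter Slc16a3 were higher in the lymph node in control and cKO cells alike. Hexokinase 2 and Mif were lower in both. The cKO calls of Slc16a3 and Bnip3 were lost in most fits that left out 1 library, as given below. In controls 16 of 36 members were higher and 2 lower, against 21% and 20.3% of all genes. In the cKO 11 were higher and 6 lower, against 14.1% and 15.3%. The members' median was 0.49 in controls (-0.01 over all genes) and 0.30 in the cKO (0 over all genes). The members passing as higher in both genotypes were Slc16a3, Hk1, Aldoa, Tpi1, Eno1, Eno3, Pdk3, Bnip3, Bnip3l and Adm. With total counts in place of TMM the all-gene median rose by 0.29 in controls and by 0.24 in the cKO, and the cKO split became 19 higher and 2 lower, Hk2 and Ldha being lower under both scalings. Without pLN cKO replicate 1 the cKO count fell from 17 to 11 members, 8 higher and 3 lower. Calls over all genes with total counts or without that library are not given, so these changes cannot be read as particular to the members.

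**Figure D3:**
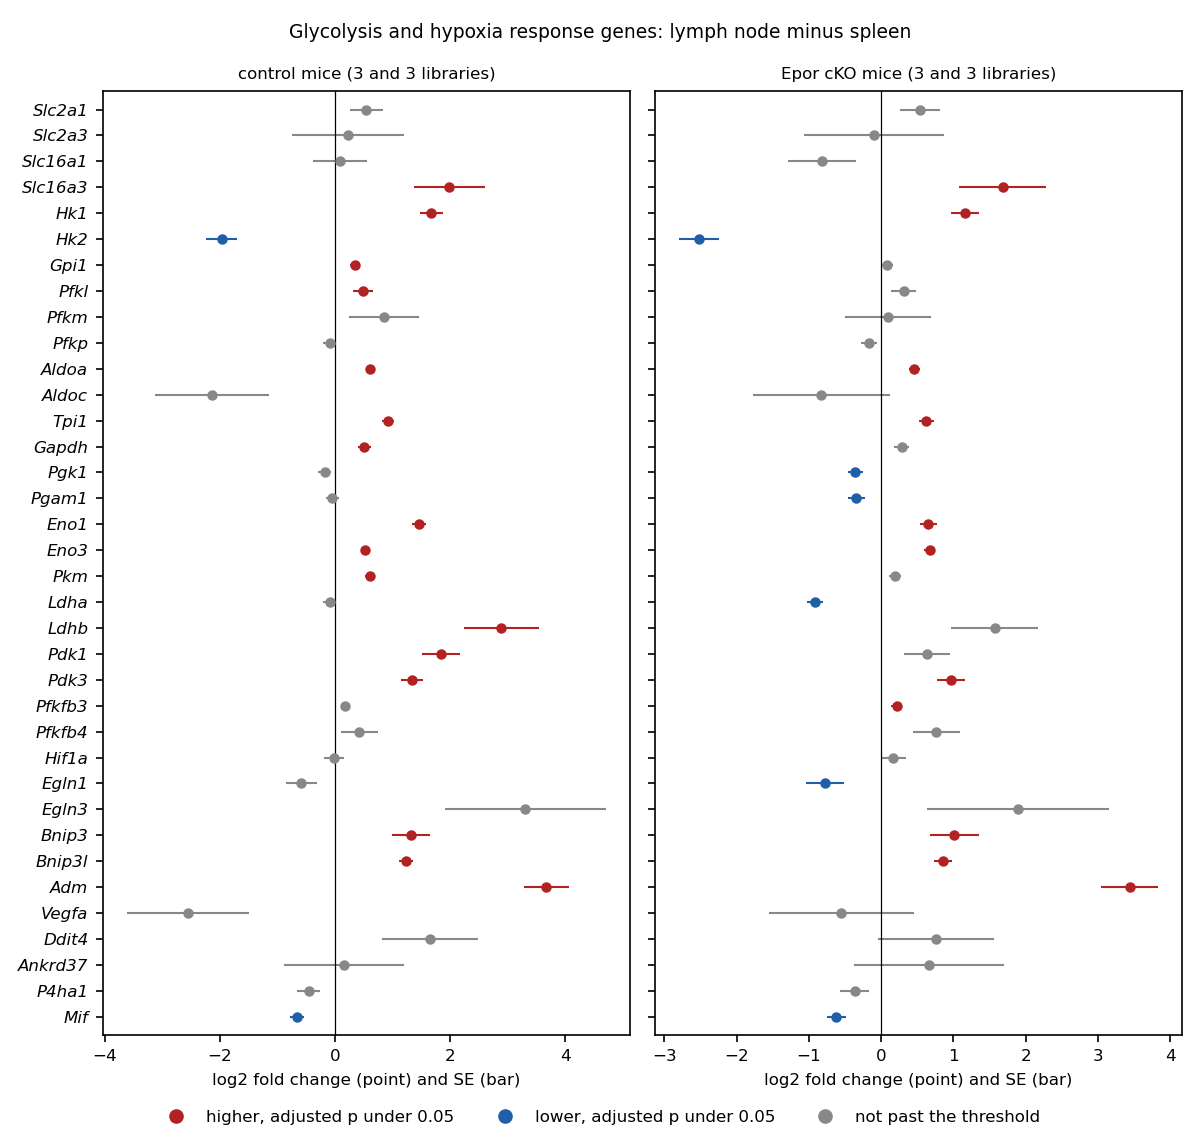
Log2 fold change (x axis, point) with its SE (bar) of lymph node against spleen for each member (y axis) in control (left) and Epor cKO (right) cDC1s, 3 libraries per group. Adm lies farthest to the right in both panels at 3.67 and 3.44, and Hk2 is low in both at -1.97 and -2.52.

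Of the transporters, Slc16a3 had 0.121, 3.66 and 2.26 CPM in spleen Ctrl and 6.71, 6.89 and 10.0 in lymph node Ctrl. In the cKO it had 4.58, 3.03 and 3.02 in spleen and 11.5, 10.9 and 11.8 in the lymph node. The tissues did not overlap in either genotype, and the log2 fold changes were 1.99 ± 0.62 (adjusted p = 0.0188) and 1.68 ± 0.61 (0.0482). Its partner Slc16a1 stood at 1.44 to 4.95 CPM over the 12 libraries and overlapped in both. The control call was lost without pLN Ctrl replicate 3 (0.0573), and the cKO call without any 1 of its 6 libraries (0.0758 to 0.145) and with DESeq2. The control call was also lost in a fit on its 2 groups alone (0.0802), and without spleen Ctrl replicate 2 its log2 value was 2.77 (0.00521).

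At the first step of glycolysis the hexokinases went opposite ways. Hk1, the constitutive isoenzyme, had 12.6, 18.1 and 16.1 CPM in spleen Ctrl and 14.3, 25.8 and 18.6 in spleen cKO. It had 58.1, 42.3 and 48.5 in lymph node Ctrl and 43.0, 43.0 and 45 in lymph node cKO, above every spleen library (1.67 ± 0.20, adjusted p = 8.92e-06 in controls; 1.16 ± 0.20, 0.000353 in cKO). Hk2, the inducible isoenzyme, had 10.7, 12 and 8.94 CPM in spleen Ctrl, 16.1, 13.5 and 15.3 in spleen cKO, 2.08, 3.78 and 2.20 in lymph node Ctrl and 2.53, 2.63 and 2.65 in lymph node cKO. Hk2 was thus below every spleen library (-1.97 ± 0.27, 3.43e-05; -2.52 ± 0.28, 5.26e-06). Per kb, Hk2 made up 54.8%, 48.7% and 44.3% of both in spleen Ctrl and 61.7%, 42.7% and 54.0% in spleen cKO. In the lymph node its share was 4.87%, 11.3% and 6.09% in Ctrl and 7.75%, 8.04% and 7.76% in cKO. All the other groups, from the first and second tables and other kits, held Hk2 shares of 51.9% to 72.4%.

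**Figure D4:**
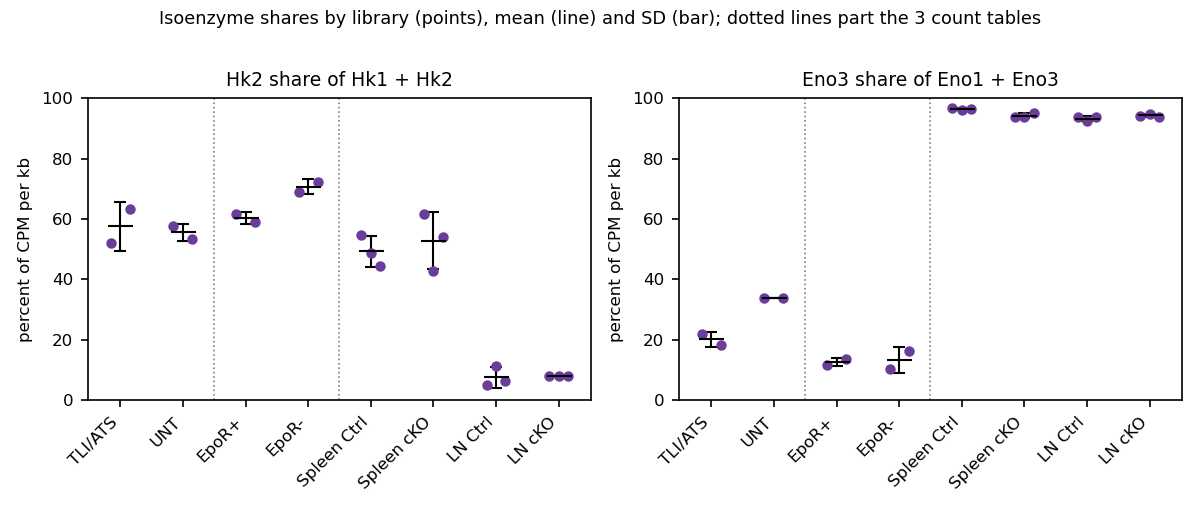
Share (y axis, percent of CPM per kb) of Hk2 in Hk1 plus Hk2 (left) and of Eno3 in Eno1 plus Eno3 (right) in the 8 groups (x axis), with libraries as points, means as lines and SDs as bars. The lymph node (LN) libraries lie between 4.87% and 11.3% on the left, and all spleen and lymph node libraries lie above 92% on the right.

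Aldoa had 364, 391 and 371 CPM in spleen Ctrl and 585, 527 and 594 in lymph node Ctrl, and 359, 383 and 392 against 503, 531 and 525 in the cKO. The tissues did not overlap, with log2 values of 0.60 ± 0.07 (adjusted p = 7.24e-06) and 0.46 ± 0.07 (0.00014). Aldoc ran from 0.121 to 12.6 CPM over the same 12 libraries and overlapped in both genotypes. Gpi1 (0.35 ± 0.09, 0.0057) and Pfkl (0.48 ± 0.17, 0.037) were higher in control lymph node and did not pass in the cKO (0.538 and 0.201). The Pfkl call was lost without spleen Ctrl replicate 2 (0.0998) or 3 (0.0651) or pLN Ctrl replicate 2 (0.106) or 3 (0.0796).

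Between triose and pyruvate, Eno1 had the smallest adjusted p of all members. It had 76.7, 87.3 and 88.2 CPM in spleen Ctrl against 219, 248 and 222 in the lymph node (1.45 ± 0.12, 1.73e-07), and 125, 128 and 101 against 185, 158 and 214 in the cKO (0.66 ± 0.12, 0.000546). Eno3 had 746, 673 and 764 CPM in spleen Ctrl against 1084, 979 and 1075 (0.52 ± 0.07, 3.54e-05), and 622, 610 and 636 against 960, 951 and 1063 in the cKO (0.67 ± 0.07, 4.7e-06). Neither enolase overlapped between tissues. Eno3 was the highest member per length in all 4 groups of this table, from 358 ± 7 CPM per kb (SD, n = 3) in spleen cKO to 602 ± 34 in lymph node Ctrl, with Eno1 at 15.6 ± 1.2 to 42.7 ± 3.0. Eno3 thus held 92.4% to 96.8% of both enolases per kb in these 12 libraries. In the first table, sorted, prepared and counted separately, the share was 18.3% to 33.8%, and in the second 10.2% to 16.2%.

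Tpi1 had 56.8, 68.8 and 54.2 CPM in spleen Ctrl against 122, 104 and 113 in the lymph node (0.91 ± 0.11, 5.81e-06), and 77.7, 71.7 and 78.3 against 109, 122 and 120 in the cKO (0.62 ± 0.10, 0.000309). All lymph node libraries lay above all spleen libraries. Gapdh (0.51 ± 0.11, 0.00133) and Pkm (0.61 ± 0.08, 3.4e-05) were higher in control lymph node, with adjusted p values of 0.0567 and 0.1 in the cKO. Pgk1, phosphoglycerate kinase, had 133, 127 and 125 CPM in spleen cKO and 92.4, 102 and 106 in lymph node cKO (-0.36 ± 0.11, 0.0182). Pgam1 had 46.0, 52.8 and 41.5 against 36.2, 39.1 and 35.4 (-0.34 ± 0.12, 0.0416). Both were lower without overlap, and neither passed with total counts (0.473 and 0.624) or in controls (0.181 and 0.791). Single libraries also ended these calls, in 3 of 6 cases for Pgk1 (spleen cKO replicates 1 and 2 and pLN cKO replicate 1, at most 0.0968). For Pgam1 they did in 5 of 6 (each but spleen cKO replicate 3, at most 0.255), and its call was lost without the low-count filter (0.179).

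Ldha is the member whose tissue difference itself differed between genotypes, as given above. It had 128, 126 and 140 CPM in spleen Ctrl and 136, 113 and 120 in lymph node Ctrl, which overlapped (-0.10 ± 0.11, 0.507). In the cKO it had 207, 202 and 175 CPM in spleen and 99.6, 92.1 and 118 in the lymph node (-0.92 ± 0.11, 1.04e-05), where all lymph node libraries lay lower. Ldhb had 2.57, 2.28 and 2.32 CPM in lymph node Ctrl against 0.182, 0.241 and 0.540 in spleen (2.89 ± 0.65, 0.00216), and without spleen Ctrl replicate 3 the value was 3.53 (0.00184). In the cKO it had 2.23, 3.25 and 2.03 against 0.804, 1.43 and 0.286 (1.57 ± 0.60, 0.062). Ldhb still made up no more than 6.92% of both subunits per kb in any of the 12 libraries.

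Of the genes that set flux, Pdk3, a kinase that shuts off pyruvate dehydrogenase, was higher in the lymph node in both genotypes (1.34 ± 0.20, 5.76e-05; 0.96 ± 0.19, 0.00136). It had 36.8, 18.9 and 24.2 CPM in spleen Ctrl, 30.3, 36.7 and 25.0 in spleen cKO, 72.2, 65.2 and 64.7 in lymph node Ctrl and 62.0, 56.1 and 61.4 in lymph node cKO. Per kb, Pdk3 held 92.5% to 97.8% of the 2 kinases in these libraries. Pdk1, of the same function, had 2.46 to 6.14 CPM in spleen and 6.17 to 13.2 in the lymph node, and passed in controls (1.85 ± 0.33, 0.000354) but not in the cKO (0.63 ± 0.32, 0.154). Pfkfb3 had 1208 to 1683 CPM over the 12 libraries (log2 0.17 ± 0.08, 0.084 in controls; 0.21 ± 0.08, 0.0431 in cKO). Its cKO call was lost without spleen cKO replicate 1 or 3 or pLN cKO replicate 1 or 3 (at most 0.164).

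Of HIF-1 alpha and its hydroxylases, Hif1a stood at 25.7 to 44.5 CPM in the 12 libraries and overlapped between tissues in both genotypes. Egln1, the main oxygen sensor of the pathway, had 14.9, 10.4 and 14.2 CPM in spleen cKO and 8.04, 7.36 and 7.56 in lymph node cKO (-0.78 ± 0.26, 0.0357), and 8.77, 14.4 and 16.4 against 6.73, 8.48 and 11.1 in controls, with overlap (0.0889). Egln3, a hydroxylase that HIF itself induces, had at most 1.55 CPM in any of these 12 libraries. The Egln1 call was lost with total counts (0.13) and without any of the 6 libraries but spleen cKO replicate 2 (at most 0.146).

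The other hypoxia response genes held the member that differed most. Adm, adrenomedullin, a secreted vasodilator peptide, had 1.69, 1.41 and 5.23 CPM in spleen Ctrl, 2.02, 3.46 and 2.04 in spleen cKO, 37.7, 40.7 and 28.0 in lymph node Ctrl and 25.8, 29.4 and 26.1 in lymph node cKO. Every lymph node library was above every spleen library, with log2 values of 3.67 ± 0.39 (2.74e-06) and 3.44 ± 0.39 (7.76e-06). Without spleen Ctrl replicate 3 the control value was 4.54 (7.19e-08). Bnip3l, a mitophagy receptor, had 41.7, 47.4 and 54.9 CPM in spleen Ctrl and 58.0, 58.6 and 50.7 in spleen cKO. It had 118, 110 and 112 in lymph node Ctrl and 89.6, 95.6 and 117 in lymph node cKO (1.24 ± 0.12, 1.21e-06; 0.85 ± 0.12, 7.32e-05). Its relative Bnip3 stood at 1.88 to 3.78 CPM in spleen and 4.52 to 7.14 in the lymph node (1.32 ± 0.34, 0.0057; 1.01 ± 0.34, 0.0331). Neither mitophagy gene overlapped between tissues, though Bnip3 shares 22.3% of its exon bases with Gm45507 on the opposite strand. Without 1 library the Bnip3 call in the cKO held only when spleen cKO replicate 1 was left out, the adjusted p reaching 0.13 among the others, and it was lost without the low-count filter (0.0904).

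Mif, macrophage migration inhibitory factor, went the other way, with 49.7, 48.9 and 43.9 CPM in spleen Ctrl against 30.5, 27.9 and 31.8 in the lymph node (-0.66 ± 0.13, 0.000658). In the cKO it had 46.1, 46.3 and 53.4 CPM against 27.5, 35.8 and 31.6 (-0.62 ± 0.13, 0.00159). Its tissues did not overlap, and with total counts the cKO difference missed the threshold (0.0569). Vegfa, Ddit4, Ankrd37 and P4ha1 passed in neither genotype. Ddit4, which stood apart in EpoR+ cDC1s, had at most 3.93 CPM in these 12 libraries, and P4ha1 had 16.4 to 31.5 CPM.

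**Figure D5:**
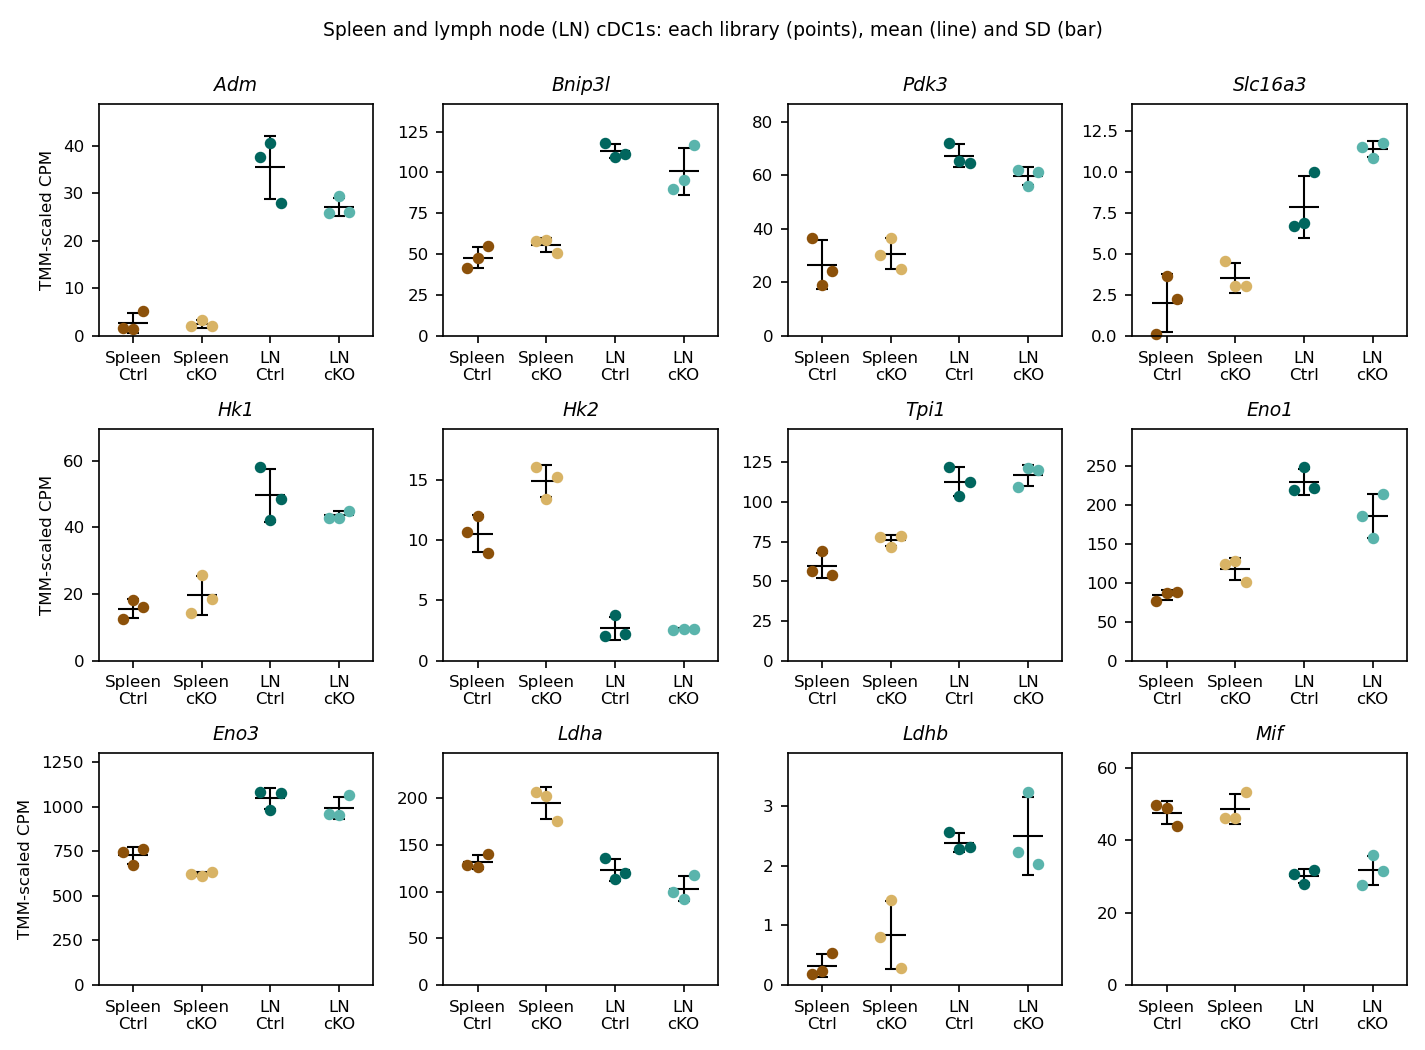
TMM-scaled CPM (y axis, from 0) of 12 members in the 4 groups of spleen and lymph node (LN) cDC1s, with each library as a point, the mean as a line and the SD as a bar. Adm and Hk1 are higher and Hk2 and Mif lower in the LN libraries of both genotypes, and the 3 spleen cKO points of Ldha, at 207, 202 and 175 CPM, lie above those of the other groups.

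Around the set, 8 of 24 other glycolysis genes were higher and 1 lower in control lymph node, and 2 higher and 1 lower in the cKO. The lower gene in both was Hk3, a myeloid hexokinase, at 11.1 ± 1.9 against 45.1 ± 14.3 CPM in controls and 14.7 ± 1.2 against 45.7 ± 3.6 in the cKO (SD, n = 3 each). Eno2, the neuronal enolase, was higher at 405 ± 45 against 226 ± 14 and 399 ± 17 against 237 ± 20. Of the 18 HIF regulators tested 4 were higher and 8 lower in controls, among them Vhl, which targets HIF-1 alpha for destruction (550 ± 38 against 277 ± 12 CPM), and Hsp90aa1, a chaperone (326 ± 34 against 1053 ± 86). In the cKO 2 were higher and 6 lower. Of 30 other HIF targets 10 were higher and 8 lower in controls and 5 and 8 in the cKO, with Hmox1 lower (2.25 ± 0.99 against 26.4 ± 3.6) and Mt1, a metallothionein, higher (201 ± 28 against 60.2 ± 10.4) in controls.

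Of the TCA list 14 of 30 were higher and 3 lower in controls and 8 and 4 in the cKO. Mpc2, a subunit of the mitochondrial pyruvate carrier, was lower at 52.2 ± 2.7 against 141 ± 16 CPM in controls and 52.4 ± 1.2 against 131 ± 12 in the cKO. Of the pentose phosphate genes 4 of 10 were higher and 2 lower in controls and 0 and 2 in the cKO, with Taldo1, transaldolase, lower at 177 ± 4 against 349 ± 29 and 164 ± 10 against 404 ± 16 CPM. Of 24 genes of glucose sensing, mTORC1 and AMPK 7 were higher and 8 lower in controls and 5 and 5 in the cKO. Akt1s1, an inhibitory subunit of mTORC1, was lower at 15.3 ± 1.0 against 67.4 ± 2.7 and 16.7 ± 1.9 against 59.6 ± 6.1. The adjusted p values of the genes named in these lists were at most 1.57e-05, that of Eno2 in the cKO, in edgeR's quasi-likelihood test.

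Other marker lists moved between the tissues too. T cell markers were higher in the lymph node, 13 of 14 in controls and 12 of 14 in the cKO, with sums of 247 to 353 CPM against 88.8 to 108 in spleen. Plasma cell markers were lower, 10 and 11 of 13, with 336 to 393 against 2479 to 5584 CPM, and so were cDC1 markers, 9 and 10 of 13, with 5284 to 5849 against 8136 to 8932 CPM. Of 12 genes of cell stress and dissociation, such as Fos and Jun, 10 were lower in control and 12 in cKO lymph node, with 5787 to 8648 against 10710 to 12350 CPM. Of the 13 plasma cell markers Tnfrsf17 and Ighg1 were at 0 in all control lymph node libraries, and erythroid markers fell from 82.8 to 132 CPM in spleen to 4.69 to 8.88 CPM, with 7 of 14 at 0 in control and 3 in cKO lymph node. The CCR7-linked maturation list summed to 21640 to 24690 CPM in the lymph node and 19770 to 21890 in spleen. Their part in the differences between tissues was not tested.

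The members that passed in none of the 7 comparisons were Slc2a1, Pfkm, Hif1a, Egln3, Vegfa and Ankrd37.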

How the data were processed

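Polyadenylated RNA of sorted mouse cDC1s was sequenced in 20 libraries, and 3 tables of read counts per gene were analysed, each on its own. Per the submitters' processing notes, reads were aligned to GRCm38 with HISAT2 (2.1.0 in the third table) and counted with featureCounts. Per the file headers, featureCounts was 2.0.3 in the second and 2.0.8 in the third table, with reads counted without regard to strand. The deposited values are raw counts, and the deposited gene lengths in bases served for levels per kb, those of the third table also for the first. Versions for the first table are not given in the sources used here. No molecular identifiers were used, so the limit given for a count of 0 covers counting error only, while SEs and p-values rest on the spread between libraries.

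Genes were filtered with edgeR's filterByExpr (minimum count 10, minimum total 15), scaled by TMM and tested with edgeR 4.0.16 in R 4.3.3 (robust quasi-likelihood test, Benjamini-Hochberg adjustment over all genes tested, threshold 0.05). The 4 groups of the third table shared 1 fit. Counts divided by TMM-scaled library size gave CPM, and SE is the fold change divided by the square root of F. The count test was checked on simulated data. In the TLI/ATS comparison, over 17236 genes, it recovered 27% of genes changed by 1 on the log2 scale and 85% of those changed by 2. In the EpoR comparison, over 15627 genes, it recovered 31% and 84%, and in the spleen cKO comparison, over 17362 genes, 60% and 82%.

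Alternatives were DESeq2 1.42.0, RLE size factors, no low-count filter, scaling without marker genes, a fit on 2 groups, a replicate block and leaving out each library. Total counts without TMM and a crossed block were chosen after seeing the data. No label ties replicate numbers to a shared animal or batch, and same-numbered libraries deviated together in the second table only, which has 2 pairs, so no block is in the tests given. The members and all lists were chosen with earlier results of these data known. Values in every library are given for members past the threshold, up to 6 per direction by smallest adjusted p, and for their isoenzyme partners. Of each pathway list, the text names up to 4 genes past the threshold with the largest change, provided that groups were separate and the mean reached 3 on the log2 CPM scale. Genes with copies elsewhere or overlapping neighbours, such as Gapdh, Eno1, Pgam1, Bnip3l, Bnip3, Pkm and Gpi1, have uncertain counts.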

Additional observations from a re-analysis of the deposited data

Results flagged for a closer look

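The cKO effect on Ldha differed between the tissues by a direct test of that difference: it was -0.822 on the log2 scale in lymph node minus spleen cDC1s (edgeR's quasi-likelihood test, adjusted p = 0.0268). Ldha was higher in all 3 spleen cKO libraries than in all 3 spleen controls, while the lymph node libraries of the genotypes overlapped. The call was lost in 5 of the 12 fits that left out 1 library.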

How the results depend on the processing

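The number of members past the threshold depended on the processing in most comparisons with few calls. It did so too for lymph node against spleen in the cKO, whose change with total counts is given above. For TLI/ATS, 2 members passed, against 1 without the low-count filter, 1 with total counts, 4 with DESeq2, and 2 to 22 without 1 library. For EpoR+, 8 passed, against 14 without the filter, 11 with DESeq2, and 2 to 11 without 1 library. For the spleen cKO, 1 passed, against 2 without the filter, 2 with total counts, 2 with DESeq2, and 0 to 1 without 1 library. The lymph node cKO count was 0 under every alternative run. For the difference between tissues, 1 passed, against 2 without the filter, 2 with total counts, 2 with DESeq2, and 0 to 3 without 1 library. For lymph node against spleen, 18 passed in controls (17 to 22 without 1 library) and 17 in the cKO (11 to 15 without 1 library). The cause of these changes was not tested. Calls over all genes are not printed beside these counts, so they cannot be read as changes of the members apart from all genes.

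Deviations of same-numbered libraries correlated at -0.12 in the first table and -0.408 to 0.255 in the third. In the second they correlated at 0.694, over 2 pairs only, and no label states a shared animal or batch, so the libraries were not treated as paired. With a replicate block 4 members passed for TLI/ATS, 19 for EpoR+, 0 for the spleen cKO, 0 for the difference, 18 for control and 14 for cKO tissues. The block also called 5347 of all 15627 genes for EpoR+, against 2606 without it. Calls lost with it were Ldha in spleen (adjusted p = 0.0665) and in the difference (0.0683), and Slc16a3 (0.0807), Pfkfb3 (0.0718) and Bnip3 (0.0583) between cKO tissues. With crossed numbers in the first table, 4 members passed for TLI/ATS. 

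Single members gave 48 results, the calls and Eno1 in the difference, which missed the threshold. All 48 kept their side of the threshold with RLE size factors and with scaling without marker genes. Of 280 pairs of a result and a library left out, 221 kept their side, 56 lost a call and 3 put Eno1 past the threshold, and none of the signs reversed.

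Without division by length, Hk2 shares were 40.5% in spleen Ctrl and 5.63% in lymph node cKO, and Pfkp shares 68.3% in EpoR+ and 79.6% in EpoR-. Eno3 shares were then 7.53% after TLI/ATS, 14.1% in untreated, 4.4% in EpoR+, 4.7% in EpoR-, 89.6% in spleen Ctrl, 84.1% in spleen cKO, 82.0% in lymph node Ctrl and 84.3% in lymph node cKO. With 2 or 3 libraries per group, members under a few CPM had wide errors.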
